A study of Zea mays with 48 samples.

Results

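The enzymes of the C4 photosynthetic cycle were followed at the transcript level in maize leaves fed on by the two-spotted spider mite, Tetranychus urticae. They are 8 of the 46272 gene features counted in the series, and were chosen by identifier from what they encode, not from measured values. Earlier results of these data were known when that choice was made. Zm00001d044095, Zm00001d044096 and Zm00001d044099 are carbonic anhydrases, Zm00001d046170 is PEPC1, Zm00001d031899 NADP-malate dehydrogenase, Zm00001d000316 NADP-malic enzyme, Zm00001d028471 PEP carboxykinase and Zm00001d038163 PPDK1. The reference gene table used here pairs 0 of the 44146 Zm identifiers of the deposited table with a name, so the enzyme names come from that choice and could not be checked against an annotation. All 8 passed the filter on low counts in every fit.

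The 48 libraries form 12 groups of 4 in 2 experiments on leaf 4 of plants 22 days old. In the B96 experiment the inbred lines B73 and B96 and their F1 were each sampled as uninfested controls and as infested leaves. The B75 experiment has the same layout for B73, B75 and the F1 of those lines, with its own B73 libraries, as the design text prescribes. Infested leaf sections carried 200 adult female mites for 24 hours inside a barrier of non-toxic wax, and control sections had the wax without mites. B73 is the line of the maize reference genome, all lines were counted on it, and B96 and B75 are known as lines with resistance to mites. Within each experiment the samples were laid out in randomized blocks and collected at the same time of day. How many plants a library pools is not stated in the labels. Spread among these samples, which may be technical, is therefore what the p-values measure.

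In C4 plants such as maize, carbon is fixed first in mesophyll cells and released again around Rubisco in the bundle sheath. Carbonic anhydrase turns CO2 into bicarbonate, PEP carboxylase joins it to phosphoenolpyruvate, and NADP-malate dehydrogenase reduces the product to malate in mesophyll chloroplasts. NADP-malic enzyme releases CO2 from malate in bundle sheath chloroplasts, and PEP carboxykinase does so from oxaloacetate in the cytosol of the same cells. Pyruvate orthophosphate dikinase (PPDK) then regenerates phosphoenolpyruvate in the mesophyll. These enzymes are among the most abundant proteins of a maize leaf.

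The members took 5.14 to 8.2% of all gene counts in the 24 control libraries and 2.54 to 5.9% in the 24 infested ones. Control libraries held 12.5 to 20.9 M gene counts (median 16.4 M) and infested libraries 9.98 to 16.6 M (median 12.4 M), so depth differed with infestation and its part in the results was not tested. Reads with more than one alignment made up a median of 12.6% of the reads in control and 11.5% in infested libraries, and copies that resemble each other lose reads to that class. Levels are given in CPM, gene counts relative to a library size that was scaled within each experiment by TMM, and as mean ± SD of 4 libraries. Without a transcript length, levels are compared between groups for 1 gene and not between genes. In whole leaf sections, fewer cells of a type and less RNA per cell cannot be told apart. Marker lists for leaf cell types gave no value because their symbols could not be paired with identifiers of the table.

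**Figure D1:**
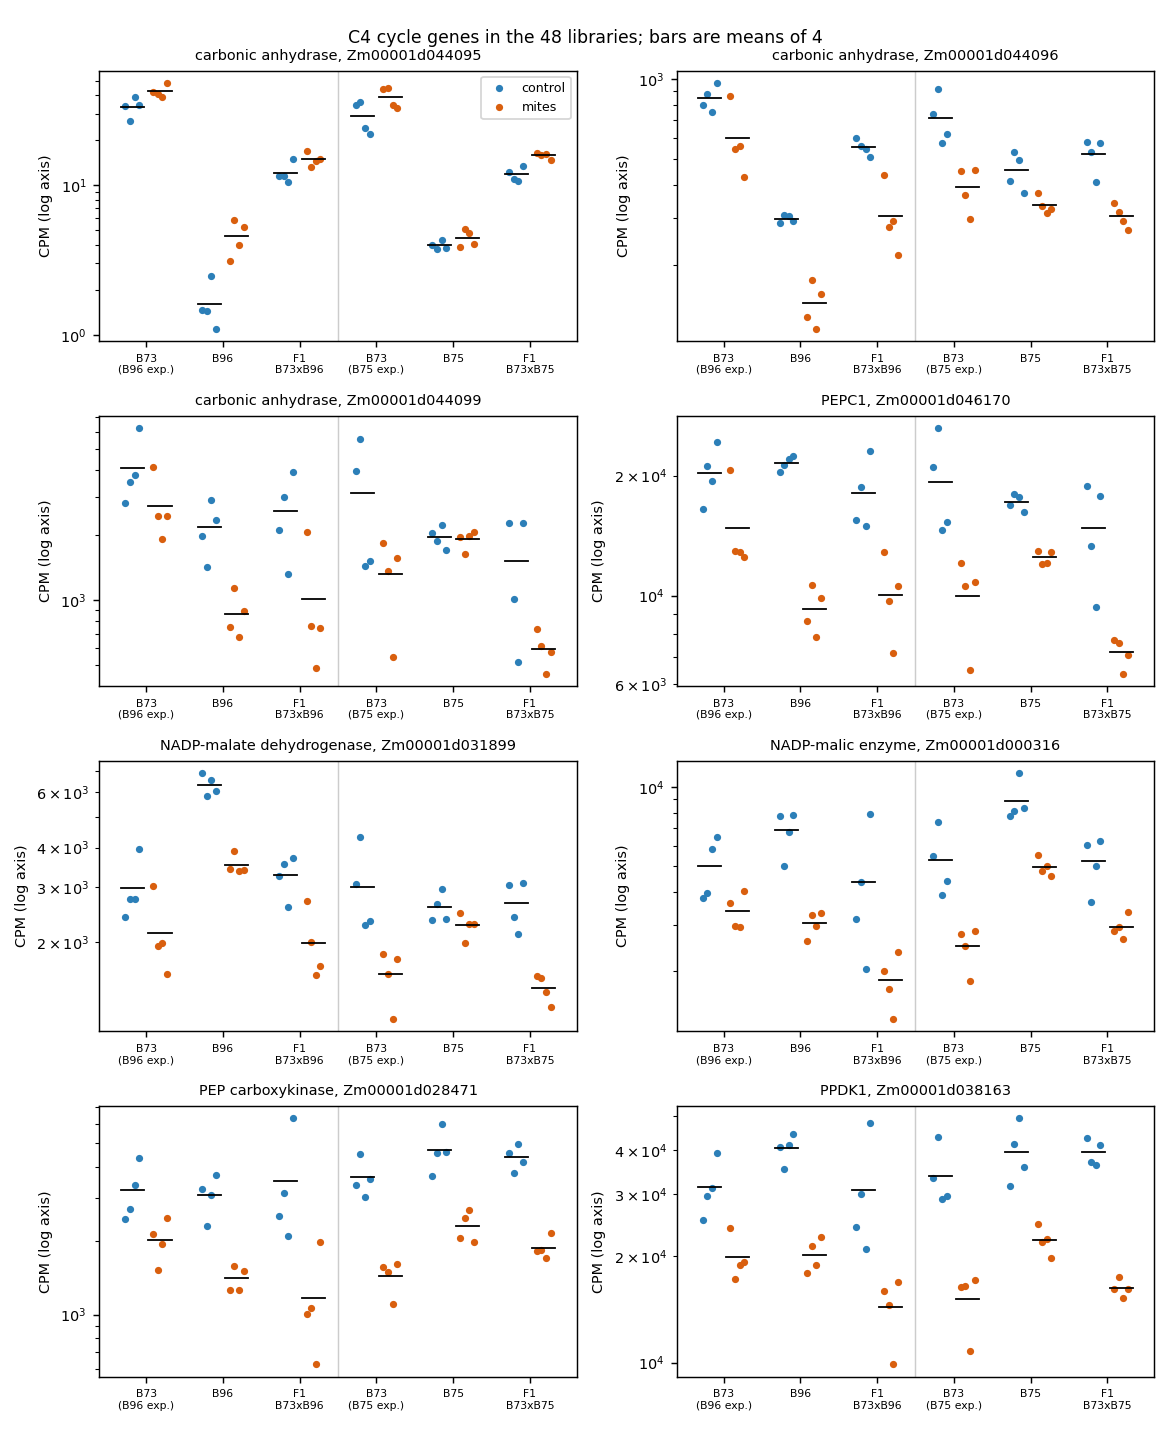
CPM (log axes) of the 8 genes in all 48 libraries, by genotype, with blue points for control and orange points for infested libraries and bars for means of 4; the grey line separates the experiments, which were scaled separately. In every genotype the mean of 7 genes is lower in infested leaves, and that of Zm00001d044095 is higher.

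How mites change the transcripts of the cycle was asked in 6 responses, 3 genotypes in each experiment. Of the 48 tests, 33 showed a fall, 3 a rise and 12 passed no threshold (edgeR quasi-likelihood test, adjusted p under 0.05 over all genes of the fit). All 3 rises belonged to the carbonic anhydrase copy Zm00001d044095, which had a positive fold change in all 6 responses, and the other 7 genes had a negative one in all 6. No called value of a member changed sign under any of the alternatives run. In B96 7 members fell and 1 rose, against 23% and 24.7% of all genes that fell and rose. The F1 of B73 and B96 had 7 falling members, where 20.3% of all genes fell. B73 of the B75 experiment had 7 members that fell and 1 that rose (20.2% and 18.3% of all genes), and in the F1 of B73 and B75 7 fell and 1 rose (23.6% and 22.4%). B75 had 4 falling members, where 17.1% of all genes fell. A single member, PPDK1, fell in B73 of the B96 experiment, 1 of 8 where 8.55% of all genes did.

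The median log2 fold change of the 8 members was -0.53 in B73, -1.09 in B96 and -0.98 in the F1 of the B96 experiment, and -1.02 in B73, -0.97 in the F1 and -0.45 in B75 of the B75 experiment. The medians over all genes lay between -0.03 and 0.00 in these 6 responses. Averaged over the 3 genotypes of an experiment, 7 members fell and Zm00001d044095 rose in both experiments. Of all genes, 29.9% rose and 27.7% fell in the averaged response of the B96 experiment, and 29.7% and 30.1% did in that of the B75 experiment. Scaling by total gene counts without TMM moved the median of all genes in the 6 responses up by 0.10 to 0.23 on the log2 scale and reversed no called value of a member. It changed the split of all called genes, from 3673 higher and 1930 lower to 3907 and 972 in B73 of the B96 experiment and from 4124 and 4552 to 6572 and 2281 in B73 of the B75 experiment.

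**Figure D2:**
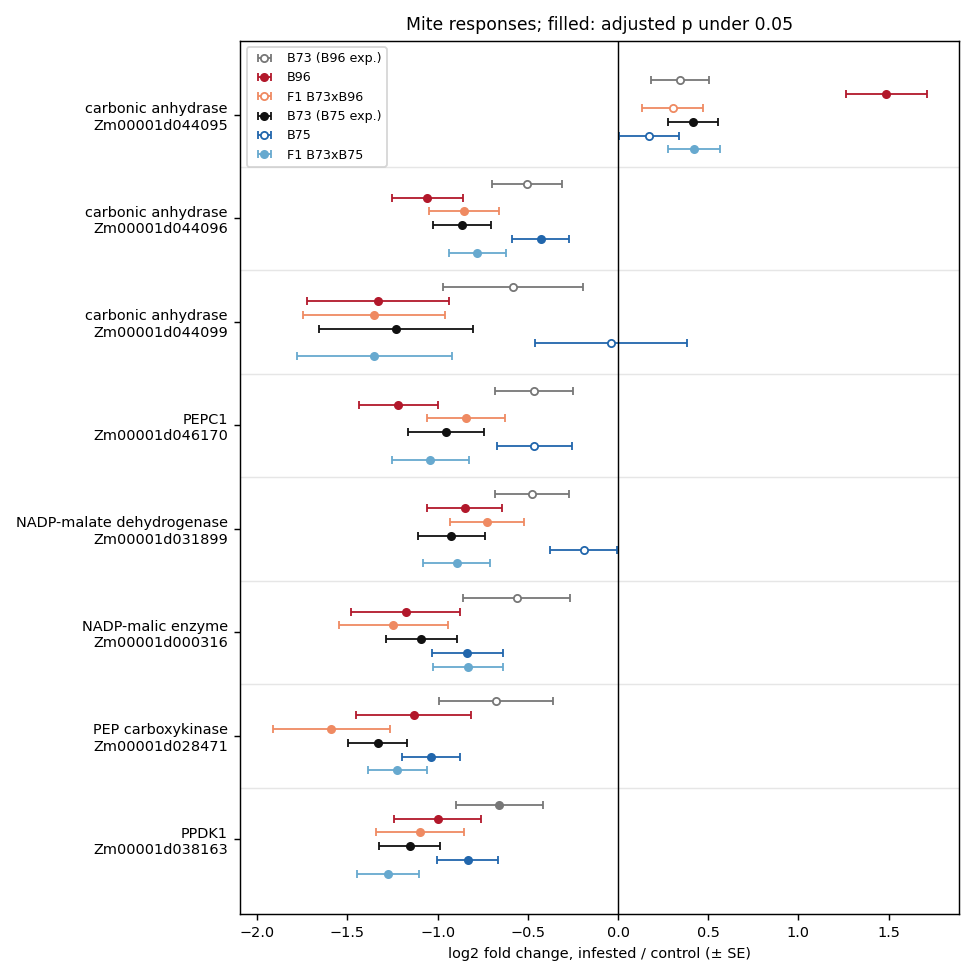
Log2 fold change of infested over control leaves (± SE) for the 8 genes in the 6 genotypes, with filled points for an adjusted p under 0.05 by edgeR. All points lie left of 0 for 7 genes and right of 0 for Zm00001d044095, and the B96 value of 1.49 stands apart from the others of that gene.

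Carbonic anhydrase makes the bicarbonate that the first carboxylation uses. Zm00001d044099 held a mean of 64.7 to 87.2% of the summed CPM of the 3 copies over the 12 groups, and Zm00001d044096 held 12.7 to 33.5%, shares that also depend on transcript length. In B96, Zm00001d044099 read 1980, 1426, 2917 and 2358 CPM in the control libraries and 749, 1141, 678 and 888 CPM in the infested ones. Every infested library lay below every control library, as for 21.8% of all genes in B96. The log2 fold change was -1.33 ± 0.39 (edgeR adjusted p = 0.00753). In B75 the same gene read 2036, 1879, 2234 and 1707 CPM in control and 1962, 1644, 1975 and 2078 CPM in infested leaves. Those groups overlapped, with a log2 fold change of -0.04 ± 0.42 (adjusted p = 0.965).

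Zm00001d044099 varied widely among replicates of B73 and the F1s. Among the B73 controls of the B75 experiment it read 3963 and 5563 CPM in replicates 5 and 6 but 1437 and 1513 CPM in replicates 7 and 8. Infested B73 of that experiment read 1830, 1367, 546 and 1569 CPM, so 2 infested libraries lay above the lower pair of controls. The fall of -1.23 ± 0.43 there (edgeR adjusted p = 0.0266) was lost without control replicate 5 (0.0675) or 6 (0.159) or infested replicate 6 (0.0561) or 7 (0.101), and without control replicate 6 the log2 fold change was -0.79. It was lost as well without TMM (0.0567), without the low-count filter (0.0553) and in a fit of the 8 libraries alone (0.0972). In the F1s the falls were -1.35 ± 0.39 in the B96 cross and -1.35 ± 0.43 in the B75 cross (adjusted p = 0.00881 and 0.0133). The call in the B75 cross was lost without F1 control replicate 1 (0.0572) or 4 (0.0555), and that in the B96 cross in a fit of its 8 libraries (0.0607). Infested F1 plants of the B96 cross read 2074, 760, 488 and 744 CPM, and without replicate 1, the highest, the log2 fold change was -1.97 (edgeR adjusted p = 0.000194). In B73 of the B96 experiment the log2 fold change was -0.58 ± 0.39 (adjusted p = 0.292).

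Zm00001d044096, a second carbonic anhydrase, fell in 5 of 6 responses. In B96 it read 286, 308, 306 and 291 CPM in control and 127, 175, 115 and 156 CPM in infested leaves. The libraries did not overlap, as for 21.8% of all genes towards lower values, and the log2 fold change was -1.06 ± 0.20 (edgeR adjusted p = 0.000108). B73 of the B75 experiment went from 713 ± 153 to 391 ± 74.4 CPM (-0.87 ± 0.16, adjusted p = 0.000185). The falls in the F1s were -0.85 ± 0.19 in the B96 cross and -0.78 ± 0.16 in the B75 cross. In B75 the fall was -0.43 ± 0.16 (adjusted p = 0.0344), a call lost without control replicate 2 (0.114) or 3 (0.0782) or infested replicate 3 (0.0621) or 4 (0.0536). In B73 of the B96 experiment the log2 fold change was -0.51 ± 0.19 (adjusted p = 0.0583).

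The third copy, Zm00001d044095, was read at a low level and went the other way. In B96 it read 1.46, 1.44, 2.45 and 1.10 CPM in control leaves, from 13 to 32 reads a library, and 3.10, 5.87, 3.98 and 5.27 CPM in infested leaves, from 44 to 87 reads. No infested library overlapped a control library, as for 23.5% of all genes towards higher values in infested B96. The level was 2.81-fold higher with mites (log2 fold change 1.49 ± 0.22, edgeR adjusted p = 9.82e-06). In the B75 experiment it rose by 0.42 ± 0.14 in B73, from 29.1 ± 7.14 to 38.8 ± 6.27 CPM (adjusted p = 0.0202), and by 0.42 ± 0.15 in the F1 (adjusted p = 0.0217). The B73 call was lost without control replicate 7 (0.0597) or 8 (0.0869), infested replicate 5 (0.0547) or 6 (0.0674), and in a fit of the 8 libraries (0.0976). The F1 call was lost without control replicate 2 (0.0551) or 3 (0.0629). B73 and the F1 of the B96 experiment had log2 fold changes of 0.34 ± 0.16 and 0.30 ± 0.17 (adjusted p = 0.126 and 0.156), which passed the threshold on total gene counts without TMM (0.0414 and 0.0362). In B75 the value was 0.17 ± 0.17 (adjusted p = 0.448).

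PEPC1 encodes the PEP carboxylase that makes the first C4 acid in the mesophyll. In B96 it read 20388, 21250, 22055 and 22380 CPM in control and 8661, 10628, 7878 and 9847 CPM in infested leaves. The controls lay close together and every infested library was far below them, with a log2 fold change of -1.22 ± 0.22 (edgeR adjusted p = 8.25e-05). In B96, 21.8% of all genes had every infested library below the controls. The F1 of B73 and B75 fell by 1.04 ± 0.21 on the log2 scale, B73 of the same experiment by 0.95 ± 0.21, and the F1 of B73 and B96 by 0.84 ± 0.22 (adjusted p = 0.00037, 0.00113 and 0.00374). B75 went from 17202 ± 815 to 12478 ± 510 CPM with no overlap between its libraries, as for 16.3% of all genes towards lower values. Its log2 fold change of -0.46 ± 0.21 missed the threshold in the fit of 24 libraries (edgeR adjusted p = 0.0851). In a fit of the 8 B75 libraries alone that fall passed (0.00552), and with DESeq2 too (0.0464). In B73 of the B96 experiment, infested replicate 1 read 20707 CPM, above 2 of the 4 controls, and the other infested libraries read 12920, 12867 and 12488 CPM. The log2 fold change there was -0.46 ± 0.22 (edgeR adjusted p = 0.123), and DESeq2 passed it (0.0373). Without that infested library the fall was -0.67 for PEPC1, -0.73 for Zm00001d044096 and -0.69 for NADP-malate dehydrogenase, and all 3 passed by edgeR (adjusted p = 0.0228, 0.0049 and 0.0139).

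NADP-malate dehydrogenase reduces oxaloacetate to malate, the acid that carries carbon to the bundle sheath. Uninfested B96 read 6912, 5858, 6554 and 6052 CPM and infested B96 3409, 3900, 3358 and 3406 CPM. All libraries separated, as for 21.8% of all genes towards lower values, with a fall by 0.85 ± 0.21 on the log2 scale (edgeR adjusted p = 0.00164). Falls in B73 and the F1 of the B75 experiment were -0.93 ± 0.19 and -0.89 ± 0.19 (adjusted p = 0.000456 and 0.000449), and the F1 of B73 and B96 had -0.73 ± 0.21 (adjusted p = 0.00763). B75 read 2359, 2643, 2945 and 2366 CPM in control and 2483, 1990, 2279 and 2283 CPM in infested leaves. These groups overlapped, and the log2 fold change was -0.19 ± 0.18 (adjusted p = 0.44). For B73 of the B96 experiment it was -0.48 ± 0.21 (adjusted p = 0.0969, or 0.0396 with DESeq2).

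NADP-malic enzyme is the main decarboxylase of maize bundle sheath chloroplasts. B75 read 7786, 8129, 11330 and 8337 CPM in control and 5502, 4817, 5013 and 4610 CPM in infested leaves. All infested libraries lay below the controls, as for 16.3% of all genes in B75, and the log2 fold change was -0.84 ± 0.20 (edgeR adjusted p = 0.0016). The falls were -1.18 ± 0.30 in B96 and -1.25 ± 0.30 in its F1, -1.09 ± 0.20 in B73 of the B75 experiment and -0.83 ± 0.20 in the F1 of B73 and B75 (adjusted p = 0.00242, 0.00222, 0.000151 and 0.0014). Uninfested F1 plants of the B96 cross were far apart, at 3151, 4357, 2031 and 7934 CPM, and infested ones read 2004, 1698, 1308 and 2365 CPM. The log2 fold change in B73 of the B96 experiment was -0.56 ± 0.30 (adjusted p = 0.176).

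PEP carboxykinase is the second decarboxylase and works on C4 acid that arrives as aspartate. In B73 of the B75 experiment it read 3390, 4497, 3026 and 3580 CPM in control and 1562, 1491, 1100 and 1604 CPM in infested leaves. The lowest control stood well above the highest infested library, and the log2 fold change was -1.33 ± 0.16 (edgeR adjusted p = 1.61e-06). In that B73, 17.4% of all genes had every infested library below the controls. In the F1 of B73 and B96 the value was -1.59 ± 0.32, to 0.332 of the control level (adjusted p = 0.000484), the lowest fitted value among the 48 mite tests, though infested replicate 4 read 1975 CPM and the other 3 libraries 627 to 1068 CPM. B75 and B96 fell by 1.04 ± 0.16 and 1.13 ± 0.32, and the F1 of B73 and B75 by 1.22 ± 0.16 (adjusted p = 2.53e-05, 0.00526 and 2.86e-06). B73 of the B96 experiment had a log2 fold change of -0.67 ± 0.32 (adjusted p = 0.126).

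PPDK1, which regenerates the acceptor of the first carboxylation, fell in all 6 responses, and in all 6 the infested libraries lay below the controls. Such a separation towards lower values was seen for 10.2%, 21.8% and 15% of all genes in B73, B96 and the F1 of the B96 experiment. It was seen for 17.4%, 16.3% and 20.1% with B73, then B75, then the F1 of the other experiment. The F1 of B73 and B75 read 43340, 36925, 36232 and 41243 CPM in control and 16154, 17530, 15279 and 16187 CPM in infested leaves. Replicates lay close together within each state there, and the log2 fold change was -1.28 ± 0.17 (edgeR adjusted p = 2.83e-06). B73 of that experiment had -1.15 ± 0.17 and B75 -0.83 ± 0.17 (adjusted p = 1.6e-05 and 0.000422). In the B96 experiment the falls were -1 ± 0.24 in B96 and -1.10 ± 0.24 in the F1 (adjusted p = 0.00156 and 0.00105). B73 of the B96 experiment read 25353, 29691, 31244 and 39078 CPM in control and 24100, 17205, 18939 and 19249 CPM in infested leaves.

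The PPDK1 fall in that B73, -0.66 ± 0.24, stood at the threshold (edgeR adjusted p = 0.0493). In a fit of its 8 libraries the adjusted p was 0.0689. The call was lost in 16 of the 24 fits that left out 1 library, at 0.0513 to 0.149, and the log2 fold change was -0.53 without control replicate 4, the furthest of these. Those 16 libraries were B73 control replicates 2, 3 and 4, B73 infested replicates 2, 3 and 4, B96 control replicate 2, B96 infested replicates 1 to 4, F1 control replicates 1 and 2, and F1 infested replicates 1, 2 and 4.

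The mite responses of different genotypes were then compared with each other directly. Of the 8 members, Zm00001d044095 passed, with a response higher by 1.15 ± 0.28 in B96 than in B73 (edgeR adjusted p = 0.00525), where 22% of all genes differed. This holds on the log2 scale, from a low level in B96. The means went from 1.6 to 4.6 CPM in B96 and from 33.5 to 42.4 CPM in B73, a larger rise in CPM in B73. The same gene had a lower response in the F1 than in B96, with a difference of -1.18 ± 0.28 (adjusted p = 0.0111, where 8.88% of all genes differed). The other 7 members had more negative fold changes in B96 than in B73, with differences of -0.75 to -0.34, and none of the 7 passed by edgeR, against 1 at an unadjusted p under 0.05. PEPC1 came closest with -0.75 ± 0.31 (adjusted p = 0.0812), and passed with DESeq2 (0.0257) and on total gene counts (0.0474). In the B75 experiment, 0 of 8 members had a called difference between B75 and B73, 1 had an unadjusted p under 0.05, and DESeq2 called 0, where 9.16% of all genes differed. There 7 of 8 fold changes were less negative in B75, by 0.26 to 1.20, with 0.73 ± 0.26 for NADP-malate dehydrogenase (edgeR adjusted p = 0.0784, and 0.049 without B73 control replicate 8).

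The F1 responses were not told apart from that of B73 at any member, by edgeR or DESeq2. The unadjusted p was under 0.05 for 0 of 8 in either cross, and 0.151% and 0.859% of all genes were called in the B96 and B75 crosses. In the B75 cross the F1 response differed from that of B75 at 0 of 8 members by edgeR and DESeq2, with 2 at an unadjusted p under 0.05, where 2.45% of all genes were called. Responses of the B73 plants of both experiments differed at 0 of 8 members and at 0% of all genes by edgeR. At an unadjusted p under 0.05 the counts were 0 members and 919 of 23751 genes, and DESeq2 called 0 members and 4 genes. In a fit of all 48 libraries, Zm00001d044095 had a response higher by 1.3 ± 0.28 in B96 than in B75 (edgeR adjusted p = 0.000873), where 18.4% of all genes differed. B96 and B75 were infested in different experiments, so line and experiment cannot be told apart in this comparison. At an unadjusted p under 0.05 the counts there were 5 of 8 members and 7220 of 23751 genes, and 7 of 8 differences were negative. Zm00001d044099 differed by -1.31 ± 0.59, NADP-malate dehydrogenase by -0.68 ± 0.27 and NADP-malic enzyme by -0.37 ± 0.35 (edgeR adjusted p = 0.121, 0.0716 and 0.531). PEPC1 differed by -0.77 ± 0.29 and Zm00001d044096 by -0.65 ± 0.25 in that comparison (adjusted p = 0.0554 and 0.0616). PEP carboxykinase and PPDK1 differed by -0.12 ± 0.35 and -0.19 ± 0.27 (0.883 and 0.698).

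In uninfested leaves B96 had lower levels of all 3 carbonic anhydrase copies than B73 and a higher level of NADP-malate dehydrogenase, 3 and 1 of 8 members, where 32.1% and 32.2% of all genes were lower and higher. PEPC1, NADP-malic enzyme, PEP carboxykinase and PPDK1 passed no threshold there, with log2 fold changes of 0.08 ± 0.22, 0.46 ± 0.30, -0.06 ± 0.32 and 0.37 ± 0.24. Zm00001d044095 read 33.9, 27, 38.8 and 34.2 CPM in B73 and 1.10 to 2.45 CPM in B96, a log2 fold change of -4.37 ± 0.21 (edgeR adjusted p = 2.08e-14). Zm00001d044096 stood at 849 ± 93.1 CPM in B73 and 298 ± 10.9 CPM in B96 (-1.51 ± 0.20, adjusted p = 5.47e-07). Both copies separated the lines with no overlap, as 29.8% of all genes did towards lower values in B96. Reads of other alleles than those of B73 may align less well to the B73 genome, and such a loss cannot be told apart from a lower transcript level in these counts.

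For Zm00001d044099 the line difference was smaller, with 4098 ± 1496 CPM in B73 and 2170 ± 628 CPM in B96 (-0.92 ± 0.39, edgeR adjusted p = 0.0435). This call was lost without B73 control replicate 3 (0.0575) or 4 (0.169), without B96 control replicate 1 (0.0856), 2 (0.123) or 4 (0.061), and without the low-count filter (0.0537). NADP-malate dehydrogenase read 2408, 2736, 2743 and 3975 CPM in uninfested B73 and 5858 to 6912 CPM in uninfested B96. It was 2.14-fold higher in B96 (log2 fold change 1.10 ± 0.21, adjusted p = 8.02e-05), and in infested leaves it was still higher by 0.72 ± 0.21 (adjusted p = 0.00465).

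In infested leaves 4 members were lower and 1 was higher in B96 than in B73, where 29.6% and 28.2% of all genes were. PEPC1 joined the carbonic anhydrases, at -0.67 ± 0.22 (edgeR adjusted p = 0.0109). Without B73 infested replicate 1, the library at 20707 CPM, that value was -0.46 and its call was lost (0.0636). The carbonic anhydrase copies stood at -3.22 ± 0.19 for Zm00001d044095, -2.06 ± 0.20 for Zm00001d044096 and -1.66 ± 0.40 for Zm00001d044099.

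**Figure D3:**
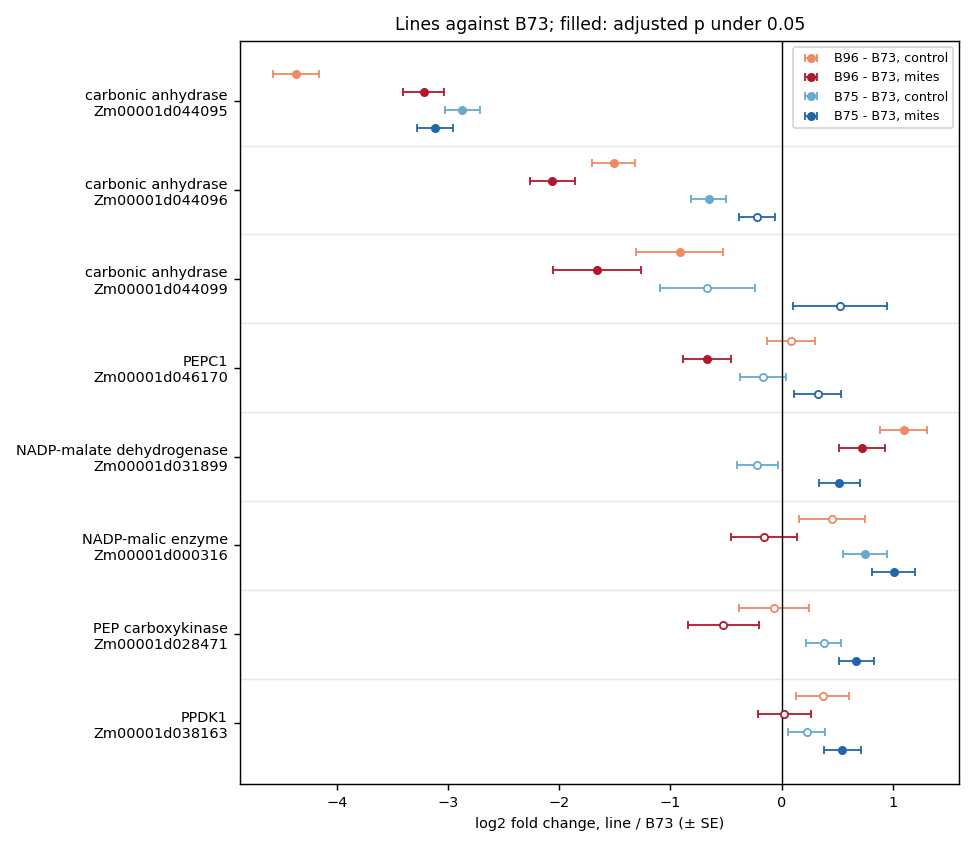
Log2 fold change of B96 or B75 over the B73 of the same experiment (± SE) in control and infested leaves, with filled points for an adjusted p under 0.05 by edgeR. Zm00001d044095 lies between -4.37 and -2.87 in all 4 comparisons, NADP-malate dehydrogenase is higher in B96 in both states, and NADP-malic enzyme is higher in B75 in both states.

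In uninfested B75, 2 carbonic anhydrase copies were lower than in B73 and NADP-malic enzyme was higher, where 29.3% and 25.3% of all genes were lower and higher. NADP-malic enzyme read 5476, 7373, 3878 and 4415 CPM in B73 and 7786 to 11330 CPM in B75. The groups did not overlap, as for 21% of all genes towards higher values in B75. The level in B75 was 1.68-fold that in B73 (log2 fold change 0.75 ± 0.19, edgeR adjusted p = 0.00233). Zm00001d044095 was at 29.1 ± 7.14 CPM in B73 and 3.96 ± 0.242 CPM in B75 (-2.87 ± 0.16, adjusted p = 3.17e-13), and the value for Zm00001d044096 was -0.66 ± 0.16 (adjusted p = 0.0012). PEP carboxykinase had a log2 fold change of 0.38 ± 0.16 (adjusted p = 0.0521), which passed with median-of-ratios size factors, total gene counts, no low-count filter and DESeq2 (0.00989 to 0.0408). Counting the fits without 1 library, it passed in 18 of 30 alternatives. It did not pass with the replicate block (edgeR adjusted p = 0.0656) or in a fit of only the groups compared.

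With mites, 4 members were higher and 1 was lower in B75 than in B73 (27.6% and 25.8% of all genes). NADP-malic enzyme was higher by 1.01 ± 0.20, PEP carboxykinase by 0.67 ± 0.16, PPDK1 by 0.55 ± 0.17 and NADP-malate dehydrogenase by 0.52 ± 0.18 (edgeR adjusted p = 0.000142, 0.00122, 0.00876 and 0.0218). For these 4 genes no B73 library reached the lowest B75 library, as for 25.8% of all genes. Without infested B73 replicate 7 the PPDK1 value was 0.38 and its call was lost (0.0584). The NADP-malate dehydrogenase call was lost without infested B73 replicate 6 (0.0574) or 7 (0.125) or infested B75 replicate 1 (0.0802), 3 (0.057) or 4 (0.0554). Zm00001d044095 was the lower one, at -3.12 ± 0.16.

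Set against the mean of its parents on the log2 scale, the uninfested F1 of B73 and B96 was higher at Zm00001d044095 by 0.71 ± 0.16 (edgeR adjusted p = 0.00139), 1 of 8 members where 23.5% of all genes were higher and 10% lower. In that F1 the gene read 12.1 ± 1.98 CPM, 0.362 of the B73 level and 0.69 of the linear mean of the parents, 17.5 CPM. The F1 was therefore above the log2 mean and below the linear mean. Infested leaves of this F1 were lower at NADP-malic enzyme, at -0.80 ± 0.27 (edgeR adjusted p = 0.0325), where 6.85% of all genes were lower and 16.5% higher. It read 1844 ± 449 CPM there, against 3391 ± 537 in B73 and 3035 ± 337 in B96. The call was lost without B96 infested replicate 2 (0.0509) or 4 (0.0518) or F1 infested replicate 2 (0.086) or 3 (0.127).

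In the B75 cross, 0 of 8 members of the uninfested F1 differed from the mid-parent by edgeR, 1 at an unadjusted p under 0.05 and 1 by DESeq2, NADP-malic enzyme (0.0483), where 15.8% of all genes were higher and 3.96% lower. The infested F1 was lower at Zm00001d044099, at -1.42 ± 0.39, and at PEPC1, at -0.63 ± 0.19 (edgeR adjusted p = 0.0167 and 0.0256), where 1.78% of all genes were lower and 10.9% higher. Zm00001d044099 read 733, 615, 456 and 574 CPM in that F1, below all infested B75 libraries and below 3 of the 4 infested B73 libraries. PEPC1 stood at 7205 ± 627 CPM in it, against 9977 ± 2414 in B73 and 12478 ± 510 in B75. The Zm00001d044099 call was lost without F1 infested replicate 3 (0.0687). The PEPC1 call was lost without B73 infested replicate 5 (0.0567) or F1 infested replicate 2 (0.0591), 3 (0.101) or 4 (0.0661). For the mite response itself, 0 of 8 members differed from the mid-parent in either cross by edgeR or DESeq2, with 1 and 0 at an unadjusted p under 0.05 in the B96 and B75 crosses. Of all genes, 0.27% and 0.0975% were called.

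Ratios between 2 members within a library do not depend on its scaling. They are given as a description, with no value for other pairs of genes beside them. Of single genes, 64.4% were called between uninfested B96 and B73, and 54.6% between uninfested B75 and B73. A loss of reads from other alleles on the B73 genome would also shift such ratios between lines, and this was not tested. The log2 ratio of NADP-malate dehydrogenase to PEPC1 was -2.79 ± 0.14 in uninfested and -2.80 ± 0.13 in infested B73 of the B96 experiment, and -1.76 ± 0.15 and -1.39 ± 0.13 in B96. The lowest B96 library, at -1.89, was above every B73 library and every library of their F1. NADP-malic enzyme over PEPC1 was -1.87 ± 0.07 in uninfested B73 of the B75 experiment and -0.97 ± 0.23 in uninfested B75, where the lowest library stood at -1.15. In infested B75 it was -1.33 ± 0.11, below every uninfested B75 library.

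The balance of both decarboxylases also differed. PEP carboxykinase over NADP-malic enzyme lay between -1.26 and -1.04 in all 8 B96 libraries and between -0.96 and -0.56 in the 8 B73 libraries of that experiment, with no overlap. In the B75 experiment it lay between -1.42 and -0.83 in the B75 libraries and between -0.82 and -0.30 in the B73 libraries. Those lines did not overlap either, by a narrow margin. In B73 and the F1 of the B75 experiment the ratio was lower in infested leaves, at -0.78 ± 0.05 against -0.52 ± 0.22 and at -0.65 ± 0.02 against -0.24 ± 0.30, and the states did not overlap. In the other 4 genotypes the states overlapped, with means of -0.64 in control and -0.76 in infested B73 of the B96 experiment, -1.16 and -1.11 in B96, -0.27 and -0.75 in their F1, and -0.92 and -1.13 in B75. The ratio of Zm00001d044099 to PEPC1 ranged over the 48 libraries from -4.18 in an uninfested F1 of the B75 cross to -1.96 in an uninfested B73 of the B96 experiment.

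**Figure D4:**
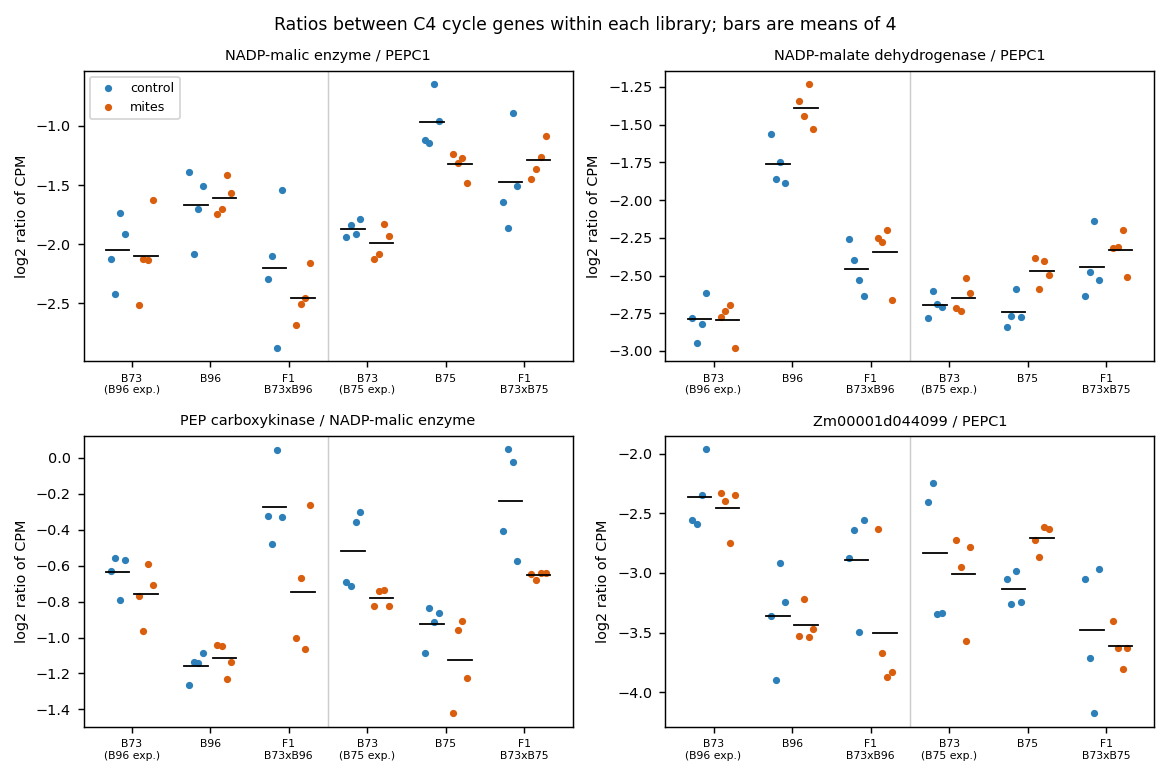
Log2 ratios of CPM between pairs of C4 cycle genes in each library, by genotype, in blue for control and orange for infested leaves, with bars for means of 4. The mean of NADP-malate dehydrogenase over PEPC1 is highest in B96, and that of NADP-malic enzyme over PEPC1 is highest in uninfested B75. PEP carboxykinase over NADP-malic enzyme is lower in B96 and in B75 than in the B73 of the same experiment.

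Deviations of single libraries from their group mean are given as a description, with no value for other sets of genes beside them. Leaving out Zm00001d044095, all 7 genes lay on the same side of their group mean in 21 of 48 libraries. In B73 control replicate 6 of the B75 experiment all 8 genes were above it, by 0.33 to 1.08 on the log2 scale, and in infested replicate 7 all 8 were below, by -1.15 to -0.17. Among uninfested F1 libraries of B73 and B96, all 8 genes were below the mean in replicate 3 (median deviation -0.40), and 7 of 8 were above it in replicate 4 (median 0.54). After group means were removed, Pearson's r over the 24 libraries of an experiment had a median of 0.641 over the 21 pairs of these 7 genes in the B96 experiment (range -0.19 to 0.91) and of 0.753 in the B75 experiment (0.36 to 0.98). All genes of a library share its depth and scaling factor, and no test was made.

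**Figure D5:**
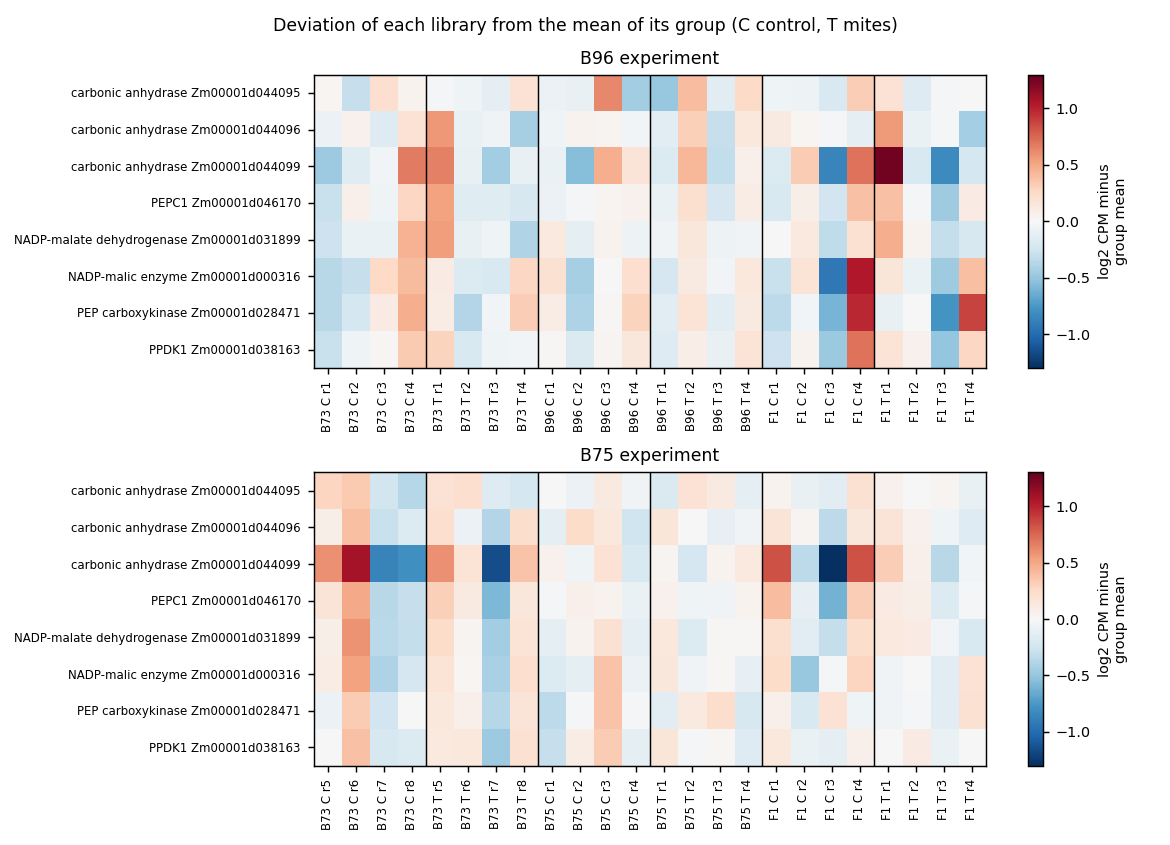
Deviation of log2 CPM from the group mean for the 8 genes (rows) in the 24 libraries of each experiment (columns, named by genotype, C for control or T for mites, and replicate), red above and blue below. All 8 genes share a colour in 17 of the 48 columns, among them B73 control replicate 6 of the B75 experiment.

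NADP-malic enzyme and PPDK1 had the highest r within groups in the B96 experiment, 0.912, followed by NADP-malic enzyme and PEP carboxykinase with 0.905 and PEP carboxykinase and PPDK1 with 0.9. In the B75 experiment the highest r was 0.984, between Zm00001d044099 and PEPC1. Zm00001d044096 had r values of -0.19 with PEP carboxykinase, -0.061 with NADP-malic enzyme and 0.17 with PPDK1 in the B96 experiment, and 0.377, 0.644 and 0.806 in the B75 experiment. Over all 24 libraries of the B75 experiment with group differences kept, PPDK1 ranked as the third closest of 17204 features to PEP carboxykinase (r = 0.969). In the B96 experiment it ranked 75 of 16962 (r = 0.907). For the other members, the closest member ranked from 31, for PPDK1, to 5949, for Zm00001d044095, in the B75 experiment. In the B96 experiment those ranks ran from 22, for NADP-malic enzyme, to 2975, for Zm00001d044095. Apart from the 8 members, the features closest to the mean profile of the 8 members were Zm00001d018623 and Zm00001d018797 in the B96 experiment (r = 0.984 for each, 24 libraries) and Zm00001d021515 and Zm00001d043299 in the B75 experiment (0.991 and 0.982). The sources used here give no name for these 4 identifiers.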

How the data were processed

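Poly(A) RNA of maize leaves was sequenced from strand-marked libraries, per the labels' protocols. The authors deposited raw counts per gene feature and library, and STAR 2.5.3a, HTSeq 0.9.1 and B73 RefGen_v4 are named in the submitters' processing notes without roles or options. The sources used here do not state the filters or counting options. The table also has 5 summary lines with a mean of 17.6% of the reads (12.7 to 28%), which stayed out of library sizes and tests. Replicates were checked for repeated deposits, and the lowest chi-square per gene for a pair was 4.82.

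Each experiment was fitted with its 24 libraries as group means without covariates, in R 4.3.3 with edgeR 4.0.16: filterByExpr at a minimum count of 10, TMM scaling, robust quasi-likelihood tests, Benjamini-Hochberg adjustment over all genes and a threshold of 0.05. Differences of responses between experiments used all 48 libraries. The SE is the log2 fold change divided by the root of its F value. The scripts were tested on simulated data. Correlations used log2 CPM with a prior count of 2. Alternatives were median-of-ratios size factors (DESeq2 1.42.0), no TMM, no low-count filter, DESeq2, a replicate block, only the groups compared, and leaving out each library. The members and lists were chosen with earlier results of these data known. Named features are the members and, per experiment, the 2 others, above a mean of 5 CPM in their highest group, that correlate most with the members' mean standardised profile. Further pathway genes and cell markers, listed by symbol, could not be matched to identifiers and gave no value. No sequence or genome position of the members is shown.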

Additional observations from a re-analysis of the deposited data

Results flagged for a closer look

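In 4 of 96 groups of 4 libraries, 1 library stood far from the other 3 by Dixon's criterion, and chance alone gives this in about 1 of 20 groups. Infested B73 replicate 1 of the B96 experiment read 20707 CPM for PEPC1, against 12488 to 12920 CPM in the others. Infested B96 replicate 2 read 3900 CPM for NADP-malate dehydrogenase, against 3358 to 3409 CPM. Uninfested B75 replicate 3 read 11330 CPM for NADP-malic enzyme, against 7786 to 8337 CPM. Infested B73 replicate 7 of the B75 experiment read 10770 CPM for PPDK1, against 16356 to 17150 CPM.

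Differences of mite responses between genotypes passed the edgeR test for the carbonic anhydrase copy Zm00001d044095 in 3 comparisons. The difference of log2 fold changes was 1.15 for B96 against B73, -1.18 for the F1 of B73 and B96 against B96, and 1.3 for B96 against B75. B96 and B75 were infested in different experiments. In CPM the mean of this gene rose more in B73 of the B96 experiment than in B96.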

How the results depend on the processing

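Of 6496 recomputed values for 208 gene results, 6366 kept their side of the threshold, 60 lost the call and 70 gained one. A change of sign was seen for 0 values called in either fit. Values called in neither fit could change sign and still count among the 6366. PEPC1 in uninfested B96 against B73 did so, at 0.08 as reported and -0.12 to 0.18 over the alternatives. The count of members called in B73 of the B96 experiment, 1 as reported, was 2 with median-of-ratios size factors, 2 without TMM, 4 with DESeq2, 3 with a replicate block, 0 in the fit of its 8 libraries and 0 to 4 with 1 library left out. For B96 against B73 responses it was 2 without TMM and 2 with DESeq2 in place of 1, and for B96 against B75 responses 2, 2, and 3 with a replicate block, with 1 to 3 when 1 library was left out. The mid-parent counts of the B96 cross went from 1 to 2 with DESeq2 in controls (1 to 2 with 1 library left out), and from 1 to 3 with DESeq2 and 3 with the block in infested leaves (0 to 3). In the B75 cross they went from 0 to 1 with DESeq2 in controls and from 2 to between 0 and 3 with 1 library left out in infested leaves. B75 against B73 gave 3 to 5 of the reported 5 members in infested leaves and 0 to 1 of the reported 0 for responses with 1 library left out. The cause was not tested. On TMM-scaled library sizes the members' share of counts was 8.071% in place of 6.825% in uninfested B96 and 3.066% in place of 3.293% in the infested F1 of the B75 cross.

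Over all genes, F1 against B73 responses in the B96 cross had 34 calls, or 158 with DESeq2, 54 with the block and 14 to 54 with 1 library left out. F1 against B96 had 2005, or 1278 without TMM (1217 to 2280). The response against the mid-parent had 61, or 244 with DESeq2, 112 with the block and 37 without the filter (35 to 73). In the B75 cross these counts were 194, or 415 with DESeq2 (128 to 258), 552, or 351 without TMM, 342 without the filter and 1152 with DESeq2 (204 to 1363), and 22, or 161 with DESeq2 and 40 with the block (14 to 53). B75 against B73 responses had 2068 (1277 to 2361). The B73 responses of both experiments had 0, or 4 with DESeq2 and 2 with the block.

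Without TMM, called genes split into 7100 higher and 3388 lower in place of 5581 and 5191 for mites in B96, 5119 and 2881 in place of 4579 and 4576 in its F1, 5500 and 2294 in place of 4885 and 3850 in B75, 6425 and 3185 in place of 5045 and 5329 in its F1, and 5428 and 9058 in place of 7270 and 7254 for uninfested B96 against B73, where the median shift was -0.22. Against the mid-parent of the B96 cross they split into 8513 and 1012 in place of 5299 and 2257 in controls, and 5752 and 769 in place of 3728 and 1545 in infested leaves. In the B75 cross the genes below the mid-parent were 1588 with DESeq2 in place of 893 in controls, and 182 without the filter and 693 with DESeq2 in place of 401 in infested leaves.

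The labels do not say that a replicate number marks a block, though each run of 6 library numbers in them holds 1 library of each group of an experiment with the same replicate number (B73 replicates 5 to 8 go with 1 to 4 of the other groups), and the block was built from these runs. Deviations of control and infested libraries of the same run correlated over 0.1 in 13 of 24 pairs (-0.192 to 0.409). These values do not settle whether the runs pair the samples, and the main fits had no term for the runs. With the replicate block, 7 results gained a call and 0 lost one. These were PEPC1 in B75 (edgeR adjusted p = 0.0457), Zm00001d044096 and PEP carboxykinase in B73 of the B96 experiment (0.0338 and 0.0382), NADP-malate dehydrogenase and PEP carboxykinase against the mid-parent in the infested B96 cross (0.0494 and 0.0316), and Zm00001d044096 and PEPC1 for B96 against B75 responses (0.0392 and 0.0265).

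Zm00001d044095 had the fewest reads of the members, 13 to 32 a library in uninfested B96.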
